A study of Rattus norvegicus with 4 samples.

Results

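Cell cycle and proliferation genes were examined in lumbar dorsal root ganglia (DRGs) of young Wistar rats that had received cisplatin or vehicle. The set held 39 gene symbols, taken as the rows of the deposited count table whose gene name was one of them and whose biotype was protein coding. A row was found for 38 of the 39, and all 38 passed the filter on low counts, out of 14719 protein-coding genes tested, 22293 protein-coding genes and 33506 rows in the table. The other symbol, Ccnb2 (cyclin B2), matched no row, so its level was not analysed here, but its promoter is counted below.

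The data were 4 libraries of polyadenylated RNA, 2 from rats given vehicle (PBS) and 2 from rats given cisplatin, a platinum chemotherapeutic that crosslinks DNA. All rats were wild type (WT). Per the study's methods, each agent was injected intraperitoneally on postnatal days P14 and P16, cisplatin at 0.3 mg/kg. The labels state collection 16 days after treatment, whereas the methods give P23, so the interval is uncertain. Each library pooled 2 to 5 lumbar DRGs, and male and female rats were used in the study, but the sources used here do not tie a sex to any library. Library totals were 23267950 and 21384801 counts in the vehicle libraries and 25282170 and 25618417 in the cisplatin libraries. All 7 sensory neuron markers, all 6 Schwann cell markers and all 5 satellite glia markers had counts in every library. The libraries are whole tissue, in which a larger number of cycling cells and more cell cycle RNA per cell cannot be told apart.

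A cell enters the cycle when D-type cyclins activate CDK4 and CDK6, which phosphorylate the retinoblastoma protein RB and so release E2F transcription factors. Cyclin E with CDK2 then carries the cell into S phase, where the MCM helicase opens origins and PCNA clamps the polymerase to DNA, and cyclin B with CDK1 drives mitosis, which the spindle checkpoint holds until every chromosome is attached. DRG neurons are postmitotic, whereas Schwann cells, satellite glia, fibroblasts, endothelial cells and macrophages of the ganglion can divide. Several of these proteins also serve outside division. D-type cyclins and CDK4 are present in resting cells, and PCNA and ribonucleotide reductase act in DNA repair.

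Promoter sequences are given first, because E2F and the DREAM or MuvB complexes switch these genes through short elements close to the start. A RefSeq promoter (build GRCr8, the 250 bases before the gene's start) was matched for 29 of the 39 members. The elements searched, on both strands, were the CHR (TTTGAA), the CCAAT box (CCAAT) and 4 forms of the E2F element (TTTCCCGC, TTTGGCGC, TTTCGCGC and TTTGCCGC), whose matches on opposite strands can share bases. Cdk1 and Prc1, which act in mitosis, are shown because they hold the CHR and the CCAAT box, Mcm5 because it holds E2F elements, and Rb1 as a member that holds none of the 3. Capitals mark the matches, and a match on the opposite strand appears as its reverse complement, such as ATTGG. The Cdk1 sequence is chr20:19265043-19265292 on the plus strand, that of Prc1 is chr1:143659231-143659480 on the plus strand, that of Mcm5 is chr19:13488563-13488812 on the plus strand and that of Rb1 is chr15:54911858-54912107 on the minus strand.
Cdk1: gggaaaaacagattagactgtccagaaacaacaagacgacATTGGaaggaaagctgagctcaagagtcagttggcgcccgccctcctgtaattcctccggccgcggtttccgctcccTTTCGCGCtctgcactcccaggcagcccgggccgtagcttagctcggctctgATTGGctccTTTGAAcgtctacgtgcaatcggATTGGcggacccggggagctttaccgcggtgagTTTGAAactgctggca
Prc1: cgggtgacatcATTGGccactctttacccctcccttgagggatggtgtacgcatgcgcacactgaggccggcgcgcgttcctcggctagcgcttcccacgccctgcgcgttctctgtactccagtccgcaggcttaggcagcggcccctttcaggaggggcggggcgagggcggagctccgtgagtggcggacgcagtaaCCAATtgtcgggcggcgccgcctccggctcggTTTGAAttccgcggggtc
Mcm5: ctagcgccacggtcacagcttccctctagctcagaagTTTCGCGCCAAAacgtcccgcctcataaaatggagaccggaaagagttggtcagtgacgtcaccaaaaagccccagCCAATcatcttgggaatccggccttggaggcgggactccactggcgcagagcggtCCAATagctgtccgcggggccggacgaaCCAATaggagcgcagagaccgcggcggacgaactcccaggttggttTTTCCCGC
Rb1: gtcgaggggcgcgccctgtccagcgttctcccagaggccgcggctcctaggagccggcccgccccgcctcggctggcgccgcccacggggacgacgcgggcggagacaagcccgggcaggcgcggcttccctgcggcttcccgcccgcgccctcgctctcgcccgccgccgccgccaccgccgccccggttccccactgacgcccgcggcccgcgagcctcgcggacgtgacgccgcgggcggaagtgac

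In Cdk1, the CHR matches lie 72 to 67 and 16 to 11 bases before the start, after an E2F element. In Mcm5, the first 2 E2F matches lie on opposite strands and overlap. The CHR was found in 8 of the 29 member promoters (27.6%) and in 16.2% of all 33469 promoters of this length. The CCAAT box was found in 19 of the 29 (65.5%) and in 34.0% of all promoters. An E2F element was found in 6 of the 29 (20.7%), which were Mcm2, Mcm5, Mcm6, Mcm7, Tyms and Cdk1, and in 1.73% of all promoters. By role, the CHR lay in 4 of 5 promoters of chromosome, spindle and cytokinesis genes (Birc5, Mki67, Prc1 and Top2a) and in 0 of 3 of the cyclin D, CDK4/6 and RB-E2F genes, and the E2F element lay in 4 of 7 promoters of replication genes. Member promoters had a median GC content of 58.8%, against 51.2% for all promoters. These matches describe sequence letters and are not measured binding.

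Per length, in FPKM (fragments scaled to gene length and library depth), the level of the members spanned a wide range. Cdk4, the kinase of the D-type cyclins, had the highest mean level at 67.9 FPKM. Pcna, the sliding clamp, followed at 45.0 FPKM, Ccnd3 (cyclin D3) at 40.3 FPKM, E2f1 at 28.1 FPKM, Cdc25b, a phosphatase that activates CDK1, at 28.1 FPKM, Ccnd1 (cyclin D1) at 17.3 FPKM and Rrm1, the large subunit of ribonucleotide reductase, at 10.2 FPKM. The other 31 members averaged under 10 FPKM, the median over all 38 was 3.69 FPKM, and the lowest was Cenpf, a kinetochore protein, at 0.40 FPKM. The gaps between neighbours in this order were often within the spread between libraries: E2f1 ranged from 21.4 to 37.8 FPKM and Cdc25b from 25.4 to 33.2 FPKM, and the ranges of Pcna (39.1 to 56.5 FPKM) and Ccnd3 (35.6 to 45.1 FPKM) overlapped too. The 7 highest thus held 4 genes of the cyclin D, CDK4/6 and RB-E2F step, and the genes of mitosis other than Cdc25b averaged at most 5.37 FPKM.

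**Figure D1:**
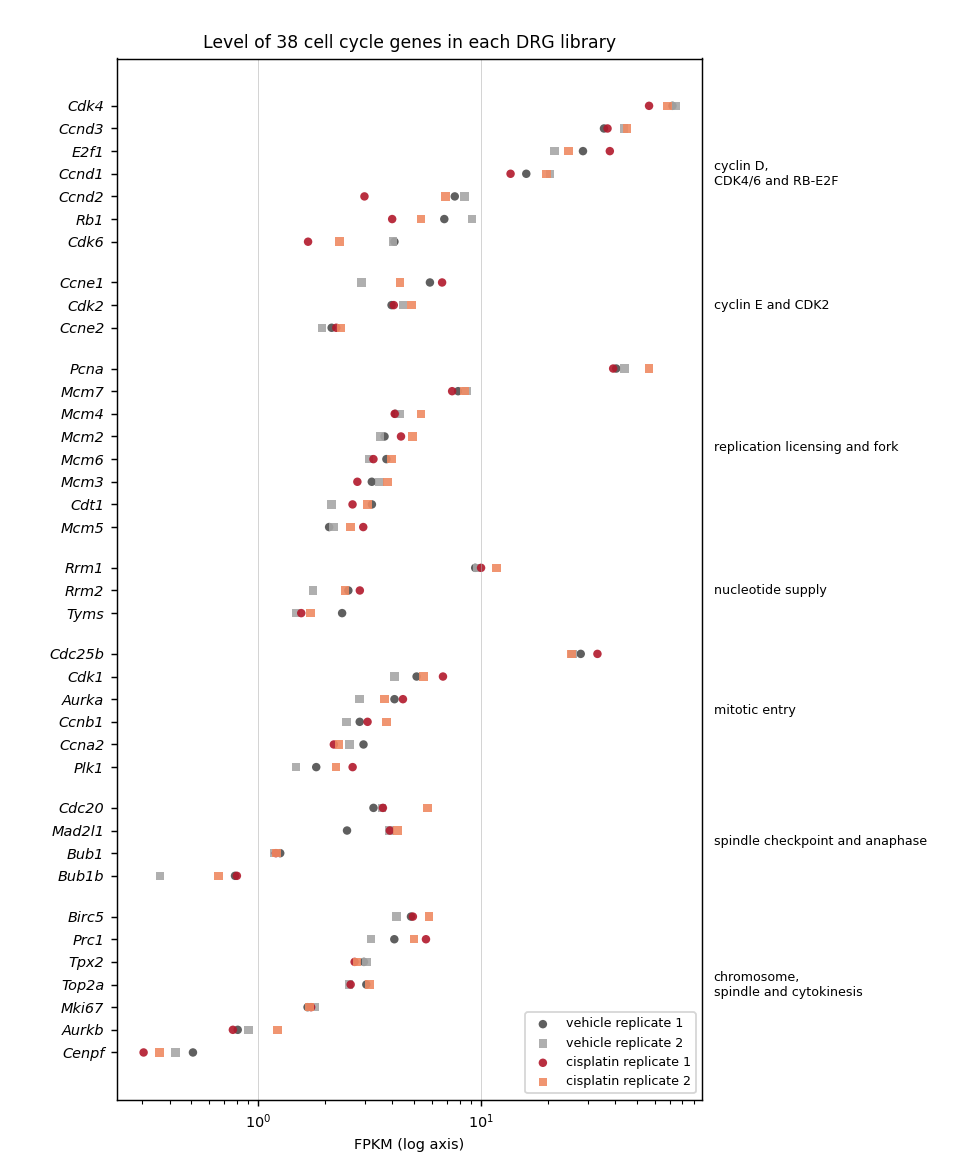
Level of each of the 38 members in each library, in FPKM on a log axis, grouped by role, with 1 point per library (vehicle replicates 1 and 2, cisplatin replicates 1 and 2). Cdk4, Pcna, Ccnd3, E2f1, Cdc25b, Ccnd1 and Rrm1 lie at the top with means of 10.2 to 67.9 FPKM, and Cenpf, Bub1b and Aurkb lie under 1 FPKM on average.

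Summed over the 38 members, the level was 336 and 339 FPKM in the vehicle libraries and 328 and 363 FPKM in the cisplatin libraries, so the groups overlapped. The mean was 337 ± 2.12 FPKM (SD, n = 2) with vehicle and 346 ± 24.9 FPKM (SD, n = 2) with cisplatin. Without Cdk4, the member of highest FPKM, the sums were 264 and 265 FPKM with vehicle and 271 and 295 FPKM with cisplatin. Those sums did not overlap. Nor did the sums of all 38 members in CPM (counts scaled to library depth with TMM factors). They were 763 and 759 CPM with vehicle and 788 and 808 CPM with cisplatin. No sum was tested. Mki67 and Top2a, which are often read as signs of division, had levels that lay close together in the groups. Mki67, the Ki-67 antigen present in all phases of the active cycle, had 420 and 361 counts with vehicle and 443 and 403 with cisplatin. That was 16.8 and 18.3 CPM against 17.4 and 17.1 CPM. Top2a, topoisomerase II alpha, had 17.4 and 14.7 CPM with vehicle and 14.8 and 18 CPM with cisplatin. Their groups overlapped, with a log2 fold change (cisplatin minus vehicle) of -0.02 for Mki67, 95% confidence interval -0.53 to 0.48, and of 0.03 for Top2a, interval -0.54 to 0.61. Values of Mki67 and Top2a in every library were chosen after they were seen. Mki67 is a long transcript, and its log2 fold change was 0.38 once a trend of fold change on gene length was taken out. That of Top2a was then 0.26. Spearman's rho between log2 fold change and gene length was -0.36 over all genes tested and -0.12 over the members.

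Each gene was compared with edgeR's quasi-likelihood test, and a gene was called when its p, adjusted by Benjamini-Hochberg over all genes tested, was under 0.05 and it changed at least 1.5-fold. None of the 38 members was called higher and none was called lower, against 0% of all genes called higher and 0.00679% called lower. DESeq2 called none of the members either, against 0.34% of all genes higher and 0.611% lower. The members' adjusted p-values in edgeR ran from 0.509 to 0.978. At an unadjusted edgeR p under 0.05 with the same fold, 0 members were higher and 2 were lower (Cdk6 and Rb1), against 2.8% and 5.32% of all genes. With 2 libraries per group, no single value can reach an exact two-sided permutation p below 0.333.

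The log2 fold change was above 0 in 25 members and below 0 in 13, with a median of 0.14, against 49.1% above 0 and a median of -0.01 over all genes tested. Both cisplatin libraries lay above both vehicle libraries in 10 members and below them in 7, and the groups overlapped in 21. Among all genes tested, 20.6% lay above and 21.2% below, so neither count stood far from that share, and 41.8% of all genes had groups that did not overlap. Ccnd3, Mcm6 and Top2a, all close to 0, changed sign when library size alone was used in place of TMM. The median rested on single libraries: it was -0.03 without cisplatin replicate 2 and 0.18 without cisplatin replicate 1. For 22 of the 38 members, the 95% confidence interval of the log2 fold change stayed within -1 to 1, and for 3 it stayed within a 1.5-fold change either way. A member that was not called is thus not shown to have equal levels in the groups.

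**Figure D2:**
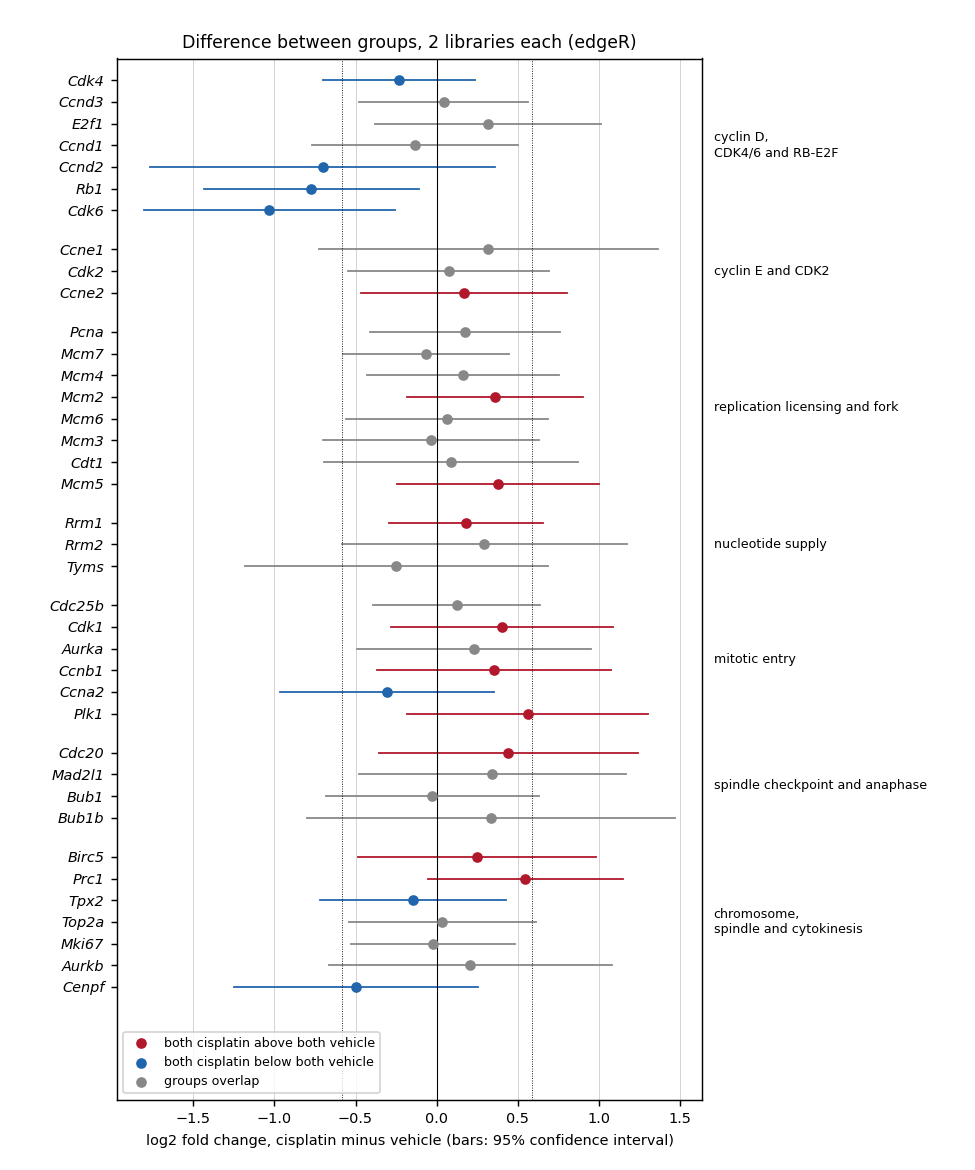
Log2 fold change of the 38 members, cisplatin minus vehicle, from edgeR, with 95% confidence intervals as bars and dotted lines at a 1.5-fold change either way. The colour of the point says whether both cisplatin libraries lay above (10 members), below (7) or across (21) the vehicle libraries, and the intervals of Cdk6 and Rb1 lie wholly below 0.

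The genes of the cyclin D, CDK4/6 and RB-E2F step had the lowest median of the role groups, -0.23 on the log2 scale over 7 genes. Of these, 2 had a log2 fold change above 0, and 4 had both cisplatin libraries below both vehicle libraries (Cdk4, Ccnd2, Rb1 and Cdk6), against 21.2% of all genes tested. The median was -0.43 without cisplatin replicate 2 and -0.096 without cisplatin replicate 1. Cdk6, the second kinase of the D-type cyclins, had 156 and 122 counts with vehicle and 65 and 83 with cisplatin, or 6.23 and 6.20 CPM against 2.56 and 3.53 CPM. Both cisplatin libraries lay under both vehicle libraries, and the vehicle libraries were nearly equal. The log2 fold change was -1.03 with a standard error of 0.31 and a 95% confidence interval of -1.80 to -0.26 (edgeR adjusted p = 0.509). Cdk6 is annotated on the minus strand of chromosome 4, from 27785647 to 27966398 (Rnor_6.0).

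Rb1 encodes the retinoblastoma protein, which holds E2F factors back, and is annotated on the minus strand of chromosome 15, from 55083140 to 55209342. Its level was 21.8 and 29.3 CPM with vehicle and 12.8 and 17.2 CPM with cisplatin. The groups did not overlap, and the log2 fold change was -0.77 with a standard error of 0.26 (edgeR adjusted p = 0.509). Lpar6 overlaps the span of Rb1 by 1809 bases on the other strand and had 177 to 265 counts per library.

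Cdk6 spans 180752 bases and Rb1 spans 126203 bases, and they were the only members over 100 kb. Over all 1864 genes tested in that span class, the median log2 fold change was -0.21, against -0.90 for these 2 members. Genes under 10 kb had a median of 0.14 over all 4391 genes and 0.15 over 16 members. Pearson's r of log2 fold change with log2 span was -0.46 over the 38 members and -0.23 over all genes, and Spearman's rho with span was -0.23 and -0.28, all from the same 4 libraries. With the gene length offset, that rho was 0.11 over the members and -0.078 over all genes. The part of gene span in the values of Cdk6 and Rb1 was not tested beyond these counts.

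Ccnd2 (cyclin D2) had 11.0 and 12.3 CPM with vehicle and 4.33 and 9.99 CPM with cisplatin. Cisplatin replicate 1 was the low library and cisplatin replicate 2 lay close to vehicle. The log2 fold change was -0.70 with a standard error of 0.43 (edgeR adjusted p = 0.605), and it was -0.21 without cisplatin replicate 1. The partner cyclins stayed near 0, with log2 fold changes of -0.14 for Ccnd1 and 0.04 for Ccnd3.

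Cdk4 had 67.2 and 70.0 CPM with vehicle and 52.8 and 63.8 CPM with cisplatin, so both cisplatin libraries were lower, with a log2 fold change of -0.23 and a standard error of 0.19 (edgeR adjusted p = 0.691). It overlaps Tspan31 by 168 bases on the other strand. E2f1, the activator released by RB, had 132 and 99.4 CPM with vehicle and 174 and 114 CPM with cisplatin, values given after they were seen. Actl10 and RGD1561517 overlap its span on the other strand, with 25 to 107 counts per library each. E2f1 was higher in replicate 1 of each group than in replicate 2, and the log2 fold change was 0.32 with a standard error of 0.28 (edgeR adjusted p = 0.716). Cdk4 and Cdk6 thus lay below 0 and E2f1 above 0, and edgeR without a block called none of the 3.

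Of the cyclin E and CDK2 genes, which start S phase, all 3 had a log2 fold change above 0, with a median of 0.17. Ccne1 (cyclin E1), the highest of them per length, had 11.7 and 5.84 CPM with vehicle and 13.3 and 8.63 CPM with cisplatin. Replicate 1 was the higher library in each group and the groups overlapped (log2 fold change 0.32, standard error 0.42, edgeR adjusted p = 0.818). The difference between the vehicle libraries was larger than the difference between the groups. Ccne2 (cyclin E2), which overlaps Ints8 by 521 bases on the other strand, had a log2 fold change of 0.17, and Cdk2, its kinase, had 0.07.

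Of the 8 replication genes, 6 had a log2 fold change above 0 and 2 below, with a median of 0.12. Mcm2, a subunit of the MCM helicase, had 12.3 and 11.8 CPM with vehicle and 14.6 and 16.4 CPM with cisplatin. Mcm5, a second subunit, had 6.71 and 7.11 CPM with vehicle and 9.56 and 8.37 CPM with cisplatin. Both cisplatin libraries lay above both vehicle libraries in these 2 genes, with log2 fold changes of 0.36 (standard error 0.22) for Mcm2 and 0.38 (standard error 0.25) for Mcm5, and edgeR adjusted p-values of 0.604 and 0.631.

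The other 4 subunits of the same ring lay nearer to 0, at 0.16 for Mcm4, 0.06 for Mcm6, -0.04 for Mcm3 and -0.07 for Mcm7, and their groups overlapped. Cdt1, which loads the helicase, had a log2 fold change of 0.09. Pcna had 47.8 and 52.7 CPM with vehicle and 46.4 and 66.9 CPM with cisplatin. Only cisplatin replicate 2 was high, and the log2 fold change of 0.17 was -0.12 without that library. Of the reads of Mcm4, an annotated pseudogene copy held 22 to 41 counts per library, which were not added to those of Mcm4.

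Among the nucleotide supply genes, the median log2 fold change was 0.18. Rrm1 had 28.9 and 29.9 CPM with vehicle and 30.7 and 35.9 CPM with cisplatin. The cisplatin libraries were both higher, by a log2 fold change of 0.18 with a standard error of 0.19 (edgeR adjusted p = 0.765). Rrm2, the small subunit, had a log2 fold change of 0.29 on 42 to 87 counts per library. A near-identical gene, LOC100359539, held 74 to 171 counts, so the counts of Rrm2 are uncertain, and the 2 genes together had 180 and 116 counts with vehicle and 258 and 225 with cisplatin. Tyms, thymidylate synthase, had a log2 fold change of -0.25.

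For the genes of mitotic entry, 5 of 6 lay above 0 and the median was 0.29. Plk1, a kinase of mitotic entry and the spindle, had 104 and 67 counts with vehicle and 154 and 120 with cisplatin, or 4.15 and 3.40 CPM against 6.06 and 5.10 CPM. Both cisplatin libraries were higher, with a log2 fold change of 0.56 and a standard error of 0.30 (edgeR adjusted p = 0.567). Cdk1, the kinase of mitosis whose promoter is printed above, had 7.39 and 5.94 CPM with vehicle and 9.72 and 7.95 CPM with cisplatin, given after the values were seen, and a log2 fold change of 0.41 (standard error 0.27, edgeR adjusted p = 0.637).

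Ccnb1 (cyclin B1), the partner of CDK1, had a log2 fold change of 0.35, and both its cisplatin libraries lay above the vehicle libraries. Ccna2 (cyclin A2) went the other way, at -0.31, with both cisplatin libraries below. Ccna2 lies wholly within Exosc9 on the other strand, sharing 6334 bases with it, and whether strand was used in counting is not given in the sources used here. Cdc25b had 79.8 and 74.0 CPM with vehicle and 95 and 72.6 CPM with cisplatin, so the groups overlapped and the log2 fold change was 0.12. Aurka, a kinase of the spindle poles, had a log2 fold change of 0.23, and an unnamed gene on chromosome 10 that the table describes as aurora kinase A held 10, 154, 162 and 11 counts in vehicle replicates 1 and 2 and cisplatin replicates 1 and 2, so reads may be split between them.

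The 4 spindle checkpoint and anaphase genes had the highest median of the role groups, a log2 fold change of 0.34. Cdc20, which activates the anaphase-promoting complex, had 5.95 and 6.55 CPM with vehicle and 6.57 and 10.4 CPM with cisplatin. The groups did not overlap, but vehicle replicate 2 and cisplatin replicate 1 were nearly equal. The log2 fold change of 0.44 (standard error 0.32, edgeR adjusted p = 0.661) was 0.07 without cisplatin replicate 2. Mad2l1 and Bub1b, which hold anaphase back, had log2 fold changes of 0.34 each, and Bub1, a kinase of the same checkpoint, had -0.03.

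Of the 7 chromosome, spindle and cytokinesis genes, 4 lay above 0 and 3 below, around a median of 0.03. Prc1, which bundles the microtubules of the midzone, had 305 and 190 counts with vehicle and 430 and 352 with cisplatin, or 12.2 and 9.65 CPM against 16.9 and 15.0 CPM. Both cisplatin libraries were higher, and the log2 fold change of 0.55 (standard error 0.24, interval -0.05 to 1.15) had the smallest edgeR p of the members above 0 (adjusted p = 0.530). Prc1 lies on the plus strand of chromosome 1, from 142087208 to 142108746 (Rnor_6.0).

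Cenpf went the other way, with 131 and 87 counts with vehicle and 80 and 87 with cisplatin, or 5.23 and 4.42 CPM against 3.15 and 3.70 CPM. Its log2 fold change was -0.50 (standard error 0.30, edgeR adjusted p = 0.605), but -0.098 with the gene length offset. Birc5 (survivin), the highest of these genes per length, had 4.31 and 3.76 CPM with vehicle and 4.41 and 5.19 CPM with cisplatin. The cisplatin libraries were higher by a log2 fold change of 0.25 (standard error 0.29, edgeR adjusted p = 0.794), which was 0.011 with the gene length offset. Aurkb, which joins survivin in the chromosomal passenger complex, had 0.21, and Tpx2, a spindle assembly factor, had -0.15.

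**Figure D3:**
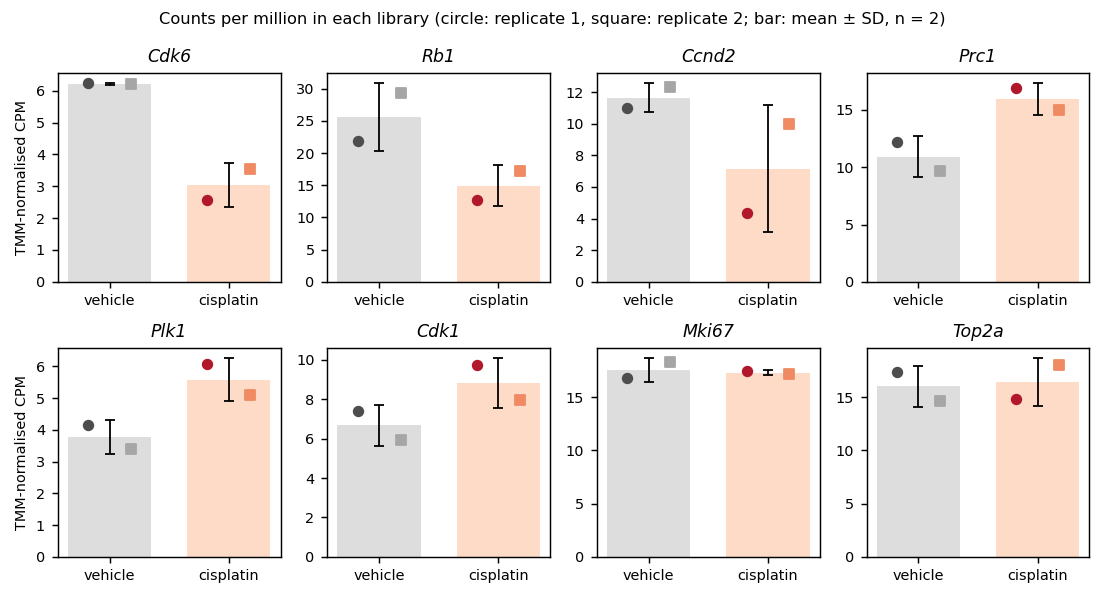
TMM-normalised CPM of 8 members, 1 panel per gene, with a circle for replicate 1 and a square for replicate 2 of each group, and bars for the mean with SD (n = 2). Cdk6, Rb1 and Ccnd2 show both cisplatin libraries below both vehicle libraries, Prc1, Plk1 and Cdk1 show both above, and in Mki67 and Top2a the groups overlap.

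The libraries also differed along a line that crossed the groups. In 9 members, replicate 1 was higher than replicate 2 in both groups, in 15 members replicate 2 was higher in both, and in 14 the groups differed. The 9 included E2f1, Ccne1, Cdk1, Plk1 and Prc1, and the 15 included Ccnd1, Ccnd2, Cdk4, Rb1 and Pcna. The summed level of the 6 Schwann cell markers ran along the same line, at 27399 and 71118 FPKM in vehicle replicates 1 and 2 and at 22621 and 64160 FPKM in cisplatin replicates 1 and 2. The 7 neuron markers summed to 3400 and 2835 FPKM with vehicle and 5761 and 3916 FPKM with cisplatin, so these sums did not overlap. All 7 had a log2 fold change above 0, with a median of 0.44, and edgeR called 0 of them. Both cisplatin libraries lay above both vehicle libraries in 4 of the 7, against 20.6% of all genes tested, and the groups overlapped in 3. The part of this difference in tissue makeup in the members' values was not tested.

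Markers of the other cell types in the tissue were summed in the same way. The 6 macrophage and leukocyte markers summed to 13.8 and 14.8 FPKM with vehicle and 12.9 and 14.6 FPKM with cisplatin, so the sums overlapped. Within that list, both cisplatin libraries were above both vehicle libraries for Cd68 and below them for Ptprc, Aif1 and Adgre1, and none of the 6 was called by edgeR. The 6 fibroblast and meningeal markers summed to 1232 and 1688 FPKM with vehicle and 705 and 1335 FPKM with cisplatin. The 5 satellite glia markers summed to 2497 and 1979 FPKM with vehicle and 2733 and 2323 FPKM with cisplatin. In each of these 3 lists the summed levels of the groups overlapped, but single genes did not always. Both cisplatin libraries were below both vehicle libraries for Col1a1, Col1a2 and Pdgfra and above them for Slc6a13. Col1a2, with a log2 fold change of -1.59, was called lower by DESeq2 but not by edgeR. The satellite glia sum rested mostly on Apoe (mean 2207 FPKM). Within that list both cisplatin libraries were below for Kcnj10, and the groups overlapped for the other 4 genes. The 4 mural cell markers summed to 67.7 and 89.7 FPKM with vehicle and 45.8 and 70.1 FPKM with cisplatin, and the 4 endothelial markers with a row, of which Cldn5 was listed at 0 in every library, to 14.6 and 17.7 FPKM with vehicle and 12.3 and 16.6 FPKM with cisplatin. The 7 T and B cell markers summed to 5.61 and 7.54 FPKM with vehicle and 5.02 and 7.94 FPKM with cisplatin, with Cd3e at 0 to 2 counts, Cd3d at 0 to 4 and Cd8a at 0 to 8, but Cd3g at 35 to 77 counts per library. The sums of the mural, endothelial and T and B cell lists overlapped as well. Both cisplatin libraries were below both vehicle libraries for Rgs5 and Myh11 of the mural list and for Flt1 and Kdr of the endothelial list. The groups overlapped for the other genes of these lists, and edgeR called none of them. The 4 erythroid markers with a row, whose cells carry cell cycle transcripts while they divide, summed to 42.5 and 30.5 FPKM with vehicle and 40.3 and 44.2 FPKM with cisplatin. The erythroid sums overlapped, and both cisplatin libraries were above both vehicle libraries for Ahsp and Hemgn only. The 3 skeletal muscle markers with a row summed to 257 FPKM in vehicle replicate 1 and to 9.42, 30.6 and 9.81 FPKM in vehicle replicate 2 and cisplatin replicates 1 and 2.

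**Figure D4:**
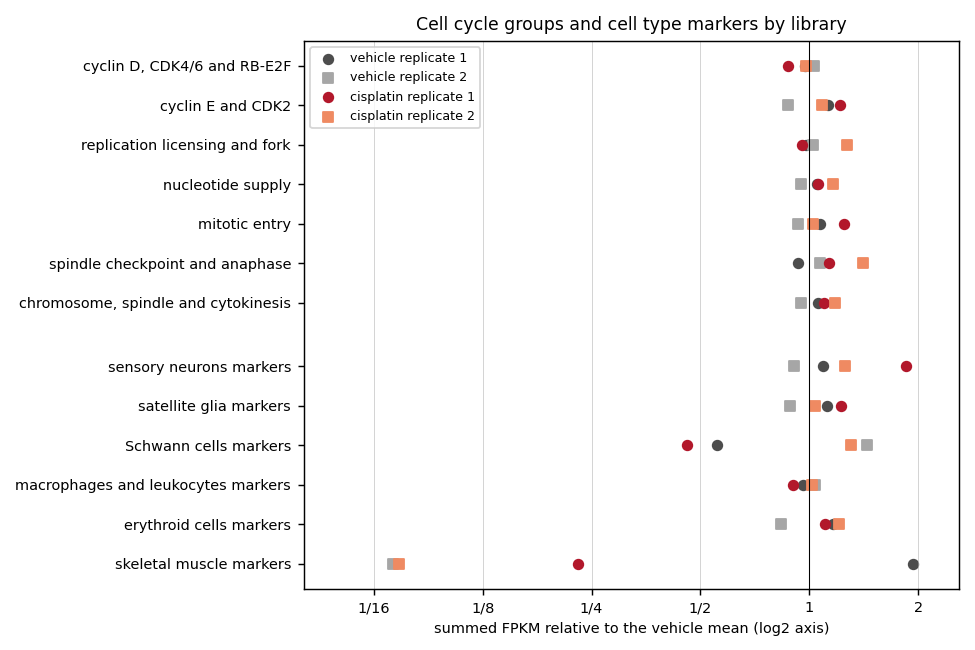
Summed FPKM of each role group and of 6 cell type marker lists in each library, divided by the mean of the vehicle libraries, on a log2 axis. Of the cell cycle groups, the spindle checkpoint sum reaches furthest from 1, at 11.8 FPKM in cisplatin replicate 2 against 7.83 and 9.0 FPKM with vehicle, and the Schwann cell sums separate replicates 2 (71118 and 64160 FPKM) from replicates 1 (27399 and 22621 FPKM) and the skeletal muscle sum is high in vehicle replicate 1 (257 FPKM).

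Other cell cycle genes were counted from lists of 103 symbols outside the 39, of which 101 had a row and 100 were tested. None was called higher and none lower by edgeR. At an unadjusted edgeR p under 0.05 with the fold, 0 of the 100 were higher and 1 was lower (E2f3). Among all genes tested, 2.8% were higher and 5.32% lower at that threshold. Their median log2 fold change was 0.00, with 51 above 0 and 49 below, and the cisplatin libraries lay above the vehicle libraries in 23 and below in 21, near the shares of 20.6% and 21.2% among all genes. The 7 CDK inhibitors with a row had a median of -0.03, with 3 above 0 (Cdkn3, Cdkn2c and Cdkn1a) and 4 below. Those below were Cdkn2a (-0.52), Cdkn1c (-0.42), Cdkn1b (-0.30) and Cdkn2b (-0.03). Cdkn3, a phosphatase of CDKs, had 4.71 and 5.64 CPM with vehicle and 7.52 and 8.76 CPM with cisplatin, and a log2 fold change of 0.65 (standard error 0.27, edgeR adjusted p = 0.519). Cdkn2c, the p18 inhibitor of CDK4 and CDK6, had 6.47 and 7.93 CPM with vehicle and 8.94 and 11.6 CPM with cisplatin, and a log2 fold change of 0.51 (standard error 0.28, edgeR adjusted p = 0.570). The cisplatin libraries were the higher ones in both. Cdkn1a, the p21 inhibitor induced by p53 after DNA damage, named after its values were seen, had 3.76 and 4.22 CPM with vehicle and 5.35 and 6.08 CPM with cisplatin, and a log2 fold change of 0.52 (standard error 0.28, edgeR adjusted p = 0.577).

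For the 19 pocket protein, E2F and DREAM or MuvB genes, the median was -0.04. E2f3, an activating E2F, had 6.19 and 6.15 CPM with vehicle and 3.54 and 3.61 CPM with cisplatin, the libraries of a group lying close together, and a log2 fold change of -0.79 (standard error 0.27, edgeR adjusted p = 0.509). Lin37, a subunit of MuvB, had 15.7 and 12.7 CPM with vehicle and 20.2 and 21.2 CPM with cisplatin (log2 fold change 0.54, edgeR adjusted p = 0.519). The 31 other replication genes tested had a median of 0.13, with 20 above 0. Tk1, thymidine kinase, had 9.79 and 8.28 CPM with vehicle and 12.0 and 14.2 CPM with cisplatin (log2 fold change 0.54, edgeR adjusted p = 0.532). Uhrf1, which maintains DNA methylation at the fork, had 2.40 and 2.79 CPM with vehicle and 3.94 and 4.25 CPM with cisplatin (log2 fold change 0.66, edgeR adjusted p = 0.541). In both, the cisplatin libraries were higher.

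Among the 43 other mitosis genes, 20 lay above 0 and 23 below, with a median of -0.06, beside medians of 0.29, 0.34 and 0.03 for the mitotic entry, the spindle checkpoint and the chromosome, spindle and cytokinesis genes among the 38. Ccnf (cyclin F) had 148 and 86 counts with vehicle and 88 and 80 with cisplatin, and a log2 fold change of -0.58 (edgeR adjusted p = 0.567). Its cisplatin libraries lay below, and vehicle replicate 1 was the high library. Kif18a, a kinesin of chromosome alignment, had 22 and 31 counts with vehicle and 43 and 65 with cisplatin, and a log2 fold change of 0.87 (edgeR adjusted p = 0.586), with both cisplatin libraries above.

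**Figure D5:**
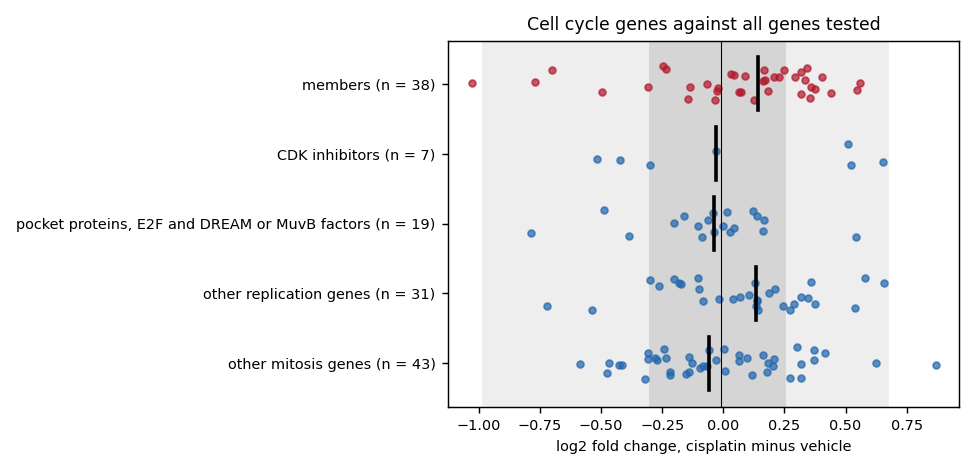
Log2 fold change (edgeR, cisplatin minus vehicle) of the 100 other cell cycle genes tested and of the 38 members, 1 point per gene by list, over grey bands that mark the middle 50% and 90% of all 14719 genes tested. Short black lines mark each list's median, which is 0.14 for the members and -0.06 to 0.13 for the 4 other lists, and Cdk6 (-1.03) and Kif18a (0.87) lie outside the wider band.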

How the data were processed

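Per the submitters' processing notes, the authors used HISAT2 2.0.5, StringTie 1.3.3b, featureCounts 1.5.0-p3, DESeq2 1.20.0, edgeR 3.22.5 and GATK 4.1.4.1, and their methods name the Ensembl Rnor_6.0 genome. Which tool did the counting and with which strand setting is not given in the sources used here. The authors deposited whole-number counts per gene without normalisation. They also deposited FPKM values, which are each count divided by gene length and by 1 constant per library. The tables hold no columns of group comparisons. Library totals ran from 21384801 to 25618417 counts, and a floor of 3 counts corresponds to 0.118 to 0.152 CPM, for counting error only, since PCR copies were not told apart by molecular identifiers.

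Samples were grouped and numbered by their titles, whereas the columns number the cisplatin libraries differently. Protein-coding genes that passed filterByExpr were normalised by TMM (factors 0.938 to 1.10) and compared without a block in edgeR 4.0.16 (glmQLFit and glmQLFTest, R 4.3.3), with all 4 libraries in 1 fit. Standard errors were computed from each log2 fold change and its F statistic. DESeq2 1.42.0 was applied to these counts and limma 3.58.1 on log2(FPKM + 1) and log2(FPKM + 0.1), a scale that understates the change of low genes. The length offset was a lowess curve of span 0.3 per library. The other settings tried were scaling by DESeq2's size factors or by library size only, dropping the filter or asking for 10 counts in each library, testing all biotypes, calling with no fold threshold or on an unadjusted p, and leaving out each library. The tests were also run on simulated data, and that outcome is not reported here. Promoters came from RefSeq (GRCr8) and were matched by symbol, and a genome of the files' build was not used.

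The members and lists were chosen with earlier results of these data known, so no set test and no p over a list is given. Values in every library are given for members called by edgeR or DESeq2 (none), for the 8 with the smallest p and for the highest per length in each role group. Of the other cell cycle genes, the 2 with the smallest p in each list are named. Ccnb2, Cdkn2d, Sgo1, Pecam1 and Myh4 matched no row, and their levels were not analysed here.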

Additional observations from a re-analysis of the deposited data

How the results depend on the processing

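The absence of member calls by edgeR with no block was also found with DESeq2, scaling by DESeq2's size factors or by library size only, no filter, a minimum of 10 counts per library, all biotypes, no fold threshold, limma on FPKM values, the gene length offset and each left-out library. With an unadjusted p, 2 members (Cdk6 and Rb1) and 1 other cell cycle gene (E2f3) were lower, against 5.32% of all genes. Of all protein-coding genes, edgeR called 0 higher and 1 lower, DESeq2 50 and 90, an unadjusted p 412 and 783, and limma on log2(FPKM + 1) 2 and 2, and the number higher was 1 on log2(FPKM + 0.1), 1 with no filter and 1 with at least 10 counts. Leaving out 1 library gave 0 to 4 higher and 2 to 5 lower, where a lone library is assumed to vary like the others. The causes of these differences were not tested.

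Same-numbered libraries are different rats, so the replicate numbers do not pair them. Across all genes tested, the differences between replicates 2 and 1 of the groups correlated at Pearson's r = 0.444, and across the members at 0.594. With the replicate block, edgeR called 529 genes higher and 1136 lower, and 0 members higher and 2 lower (Cdk6 and Rb1), against 3.59% and 7.72% of all genes. With the block and the gene length offset, 277 genes were called higher and 805 lower (1.88% and 5.47%), and 3 members lower (also Ccnd2). With DESeq2 and the block, 376 genes were called higher and 709 lower (2.55% and 4.82%), and 1 member lower (Rb1).

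Median log2 fold changes with the length offset were -0.46 for the cyclin D, CDK4/6 and RB-E2F genes (-0.46 with the block too), 0.26 for the chromosome, spindle and cytokinesis genes (0.26) and 0.066 for the other cell cycle genes (0.060). The last was -0.065 with library size alone, and the spindle checkpoint median was 0.22 on log2(FPKM + 1). Without 1 library, the medians ran from -0.027 to 0.18 over all members, from -0.43 to -0.096 for the cyclin D, CDK4/6 and RB-E2F genes, from -0.060 to 0.24 for replication, from 0.16 to 0.49 for mitotic entry, from 0.18 to 0.30 for the spindle checkpoint and from -0.11 to 0.17 for chromosome, spindle and cytokinesis genes. Cisplatin replicate 2 gave the lowest of these except in mitotic entry, where it was vehicle replicate 2.

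The log2 fold change changed sign with the length offset, alone and with the block, for Pcna (-0.0038 and -0.024), Ccnd3 (-0.016 and -0.017), Mcm3 (0.026 and 0.0095), Mki67 (0.38 and 0.38) and Bub1 (0.15 and 0.15), and with library size alone for Ccnd3 (-0.0089), Mcm6 (-0.0086) and Top2a (-0.039). Leaving out 1 library changed the sign for Pcna (-0.12 to 0.42), Ccnd3 (-0.11 to 0.21), E2f1 (-0.019 to 0.59), Cdc25b (-0.076 to 0.31), Ccnd1 (-0.43 to 0.11), Mcm7 (-0.16 to 0.031), Ccne1 (-0.096 to 0.92), Mcm4 (-0.046 to 0.35), Cdk2 (-0.061 to 0.21), Aurka (-0.0017 to 0.52), Mcm6 (-0.075 to 0.20), Mcm3 (-0.28 to 0.18), Top2a (-0.11 to 0.17), Cdt1 (-0.17 to 0.42), Tyms (-0.54 to 0.14), Mki67 (-0.074 to 0.043), Bub1 (-0.060 to 0.020), Aurkb (-0.16 to 0.51) and Bub1b (-0.10 to 1.01). With all 4 libraries, none of these genes was called in any setting. E2f1 had an edgeR adjusted p of 0.0252 with the block and the gene length offset. Its log2 fold change there was 0.47, short of a 1.5-fold change. With 2 libraries per group, the median standard error over all genes was 0.28 on the log2 scale, which limits what could be called.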
